A study of Drosophila melanogaster with 12 samples.

Results

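The 3′ extensions of 138 Drosophila genes, as the study's tables define them, were listed at exactly 0 in testes mutant for tut, bam or bgcn and carried reads in wild-type spermatocytes. The genes were chosen by their extension levels: they are those with an average extension level of 0 in at least 1 of the 3 mutants and above 0 in spermatocytes, out of 1457 genes listed in the 4 deposited tables and 1040 in the 3 mutant tables. They comprised 78 of 627 genes listed for tut, 53 of 638 for bam and 61 of 618 for bgcn. Because those levels chose the genes, the contrast between mutant and spermatocyte extensions is described below without a test. For 103 of the 138 genes the whole gene was below a level of 1 in every mutant table that listed it, so that the extension was missing where the gene itself was nearly silent.

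The mutant groups were SG-tut (tut mutant testes, allele tut3), SG-bam (bamBG/bamΔ86) and SG-bgcn (bgcn20093/bgcnQS2, with the genotype spelt bcgn in the labels). Each had 2 libraries of whole testes, which the labels describe as holding mostly germ cells stopped in mitosis. The wild-type material was obtained by laser dissection, 3 libraries of the mitotic stage (SG) and 3 of the meiotic stage, the spermatocytes (SC). Genotype, dissection and library kit changed together between the mutants and SC: SG and SC cDNA came from a low-input full-length kit followed by Nextera XT, and mutant RNA from Trizol extraction, oligo(dT) beads and an Illumina mRNA-Seq kit. These cannot be told apart here, and it is not stated if libraries within a group are from different flies. In such bulk samples, fewer cells of a type and less RNA per cell cannot be told apart either.

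Tut, Bam and Bgcn act together as a translational repressor that stops the transit-amplifying divisions of the male germline. Germ cells without any of them keep dividing as spermatogonia and do not become primary spermatocytes. Primary spermatocytes switch on a large set of testis genes, many of whose products are used only later, in the haploid spermatids and sperm. A 3′ extension is sequence transcribed beyond a proximal 3′ end of the gene, inside or outside its annotated bounds, and its reads can come from a longer 3′ untranslated region or from transcripts that run past the usual end.

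The tables hold group averages, and their unit is not named. The product of extension level and extension length moved in whole steps, with as many step sizes per group as there were libraries. All low products (20 for SG-tut, 44 for SG-bam, 32 for SG-bgcn and 132 for SC) were whole to within 0.5% of a step. Each step was taken as 1 read, and the averages were split into reads per library, which cannot be tied to library names. The split was clear for all 140 spans of the 138 genes in SC, which held between 67 and 6446 reads in total, with a median of 409.5. Reads were present in all 3 SC libraries in 140 of 140 spans, and the highest library stood a median of 1.79 times above the lowest. A read was worth 2.003 times as much in an SG-tut library as in an SC library, 2.02 times in SG-bam and 1.92 times in SG-bgcn, so the mutant libraries resolved less. An average of 0 leaves no read in either mutant library, and extension folds below are bounds against a floor of 3 reads over the mutant group. They cover counting error only. Whether gene levels and extension levels share a scale is not given, so the 2 are compared only through their ratio within a group.

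Most of these genes were strongly expressed in spermatocytes and near silent as whole genes in the mutants. In SG-tut the median gene level was 0.14, against 293 in SC, over the 78 genes. In SG-bam it was 0.60, against 146 in SC, over the 53 genes, and in SG-bgcn 0.04, against 215 in SC, over the 61. Over all genes listed the medians were 23.0 in SG-tut and 23.6 in SC, 25.2 in SG-bam and 20.5 in SC, and 25.8 in SG-bgcn and 20.2 in SC. Gene levels were at least 10 times lower than in SC for 72 of 78 genes in SG-tut (18.3% of all genes listed there), 49 of 53 in SG-bam (17.7%) and for 56 of 61 in SG-bgcn (16.5%). They were at least 1000 times lower for 57, 6 and 43 genes in the same order of mutants. Gene levels are given to 0.01, so the largest of these folds rest on mutant levels near that floor. The authors' deposited tables gave an FDR of 0.05 or less with a lower extension share for 77 of the 78 genes in SG-tut (25.2% of all listed), 52 of 53 in SG-bam (22.1%) and for 60 of 61 in SG-bgcn (23.5%). These shares are set by the choice of the genes and nothing is read from them. The choice also favours genes low in the mutants and high in SC, so the gene-level contrast is given only as a description. The percentages over all genes listed include the members.

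**Figure D1:**
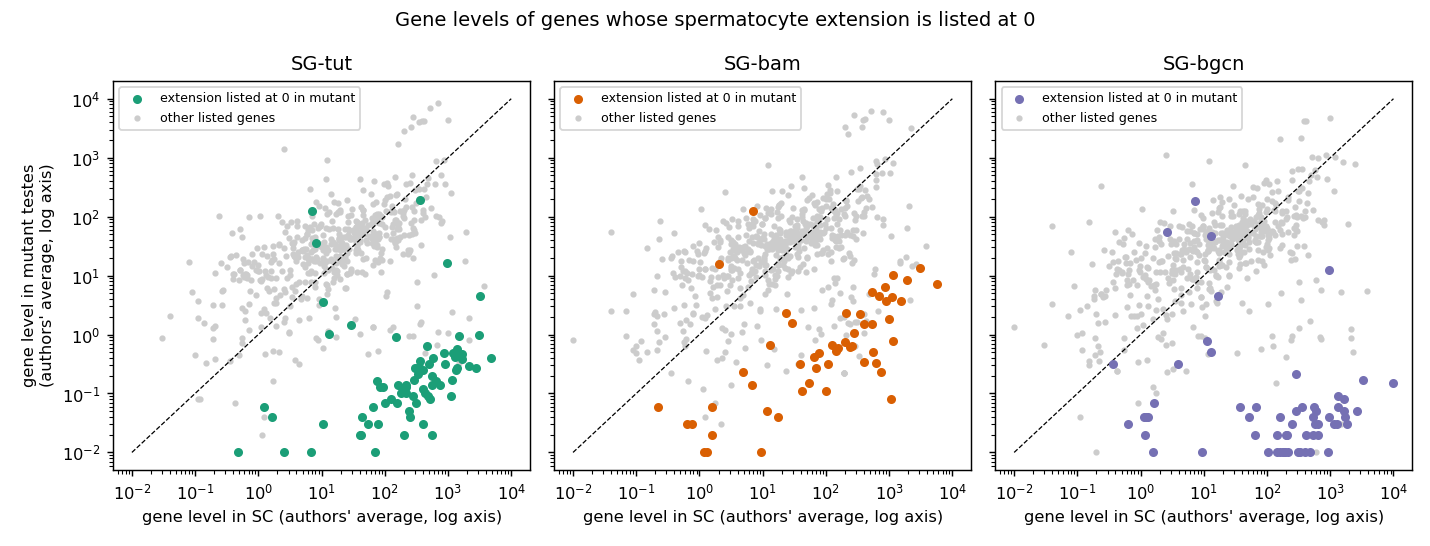
Gene level in mutant testes (y axis) against gene level in SC (x axis), both as the authors' averages on log axes, for SG-tut, SG-bam and SG-bgcn. Coloured points are genes whose extension was listed at 0 in that mutant, grey points are the other listed genes, the dashed line marks equal levels, and genes at a level of 0 are not drawn. Most coloured points lie far below the line, and 2, 2 and 3 of the drawn ones lie above it.

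The members of the spermatid differentiation list were dj, ProtA, ProtB, soti and CG13164. The gene dj (don juan, FBgn0019828, a sperm protein) had a gene level of 0.40 in SG-tut and 4726 in SC, 11814 times lower in the mutant. Its extension, 3R:7060525-7060766 on the plus strand directly after the gene end, had no reads in SG-tut and 232, 358 and 325 reads in the 3 SC libraries, at least 102-fold lower in level. The protamine genes ProtA and ProtB, which encode the basic proteins that replace histones in sperm, were at 0 in SG-tut too. ProtB (FBgn0013301, extension 2L:14881613-14882100, minus strand) had a gene level of 1 in SG-tut against 3108 in SC, with no extension reads in SG-tut against 1431, 1677 and 2210 reads in SC. ProtA (FBgn0013300, 2L:14877960-14879049, minus strand) had a gene level of 0.29 in SG-tut against 2114 in SC, and no extension reads in SG-tut against 381, 370 and 690 in SC. The 2 protamine genes are near-identical neighbours and the ProtB extension touches a ProtA exon, so the split of reads between them is uncertain. The bounds were at least 595-fold lower for ProtB and at least 162-fold lower for ProtA.

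The gene soti (scotti, FBgn0038225), which restrains caspase activity during spermatid individualization, was at 0 in 2 mutants. Its gene level was 0.46 in SG-tut and 0.08 in SG-bgcn, against 1673 in SC. Its extension (3R:14380123-14380662, minus strand) had 160, 181 and 180 reads in SC, so that the library values lay close together and above both mutants. CG13164 (FBgn0061197, now named salto) was at 0 in SG-bam, with a gene level of 5.19 in SG-bam against 526 in SC and 47, 70 and 92 SC reads. The list held 55 matched genes, of which 9 were listed in any mutant table.

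Prosalpha4T2 (FBgn0017556), a testis form of a proteasome core subunit, had a gene level of 0.01 in SG-bgcn against 188 in SC. Its extension (2R:24500268-24500864, minus strand) had no reads in SG-bgcn against 534, 598 and 792 in SC, at least 224-fold lower. CG31644 (FBgn0051644, now COX6CL, a paralog of a cytochrome c oxidase subunit) had a gene level of 0.05 in SG-bgcn against 2622 in SC, with 779, 930 and 919 SC extension reads. In SG-bam the CG31644 extension was not at 0: it had 2 reads in each library, with a gene level of 15.6. The translation factor gene eIF4E-4 (FBgn0035709, a cap-binding protein) had gene levels of 0.42 in SG-tut and 0.03 in SG-bgcn against 1287 in SC. The vacuolar proton pump subunit gene Vha16-3 (FBgn0028667) had 0.17 in SG-tut and 0.78 in SG-bam against 1170 in SC. The dynein light chain gene robl37BC (FBgn0028569) had 2.34 in SG-bam and 0.02 in SG-bgcn against 204 in SC. In each of these genes the mutant levels stood well below SC while the SC extension had reads in every library.

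Further genes with testis roles or high levels followed. The gene sowi (FBgn0037460) had gene levels of 4.37 in SG-bam and 0.03 in SG-bgcn against 1129 in SC, and 105, 177 and 289 SC extension reads. Ssl (FBgn0015300), of the Stellate family, had a gene level of 0.05 in SG-bgcn against 287 in SC, but its extension rested on only 18, 29 and 30 SC reads, and the bound was correspondingly weak at 8.97-fold. The gene snky (sneaky, FBgn0086916), needed for breakdown of the sperm membrane after fertilization, had 0.03 in SG-tut and 0.15 in SG-bam against 54.0 in SC. The globin gene glob2 (FBgn0250846) had 0.09 in SG-tut against 1121 in SC. Its span of 1940 bases began inside the gene and 1600 of those bases are annotated 3′ untranslated region, so that here the span is mostly known gene sequence.

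A CG number served as the symbol of 101 of the 138 genes, and 93 of these had no other current symbol. CG8517, with the highest SC gene level of the genes at 0 in SG-bgcn, and CG15200, with the highest of those at 0 in SG-bam, were among them. CG8517 (FBgn0034472) had a gene level of 0.15 in SG-bgcn against 9928 in SC, and 224, 280 and 242 SC extension reads. CG15200 (FBgn0030278) had 7.09 in SG-bam against 5816 in SC, with 389, 362 and 437 SC extension reads. CG31639 (FBgn0051639) had 4.56 in SG-tut and 0.17 in SG-bgcn against 3264 in SC. In CG8517 and CG15200 the SC extension had a similar number of reads in each library, against none in the mutant. Gene levels were also far below SC in CG12126 (0.27 in SG-tut against 2779 in SC) and CG31709 (13.4 in SG-bam against 3046 in SC). The same held for CG13898 (8.30 in SG-bam against 1921 in SC) and CG15109 (0.44 in SG-tut and 3.73 in SG-bam against 1555 in SC). It held too for CG1394 (0.03 in SG-bgcn against 1823 in SC) and CG15425 (0.04 in SG-bgcn against 1738 in SC). CG15577 had 0.48 in SG-tut and 6.38 in SG-bam against 866 in SC. CG9235 (now CAH15) had 0.09 in SG-tut and 1.06 in SG-bam against 279 in SC.

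CG42579 had the highest SC extension level of the genes at 0 in SG-bam, and CG6675 of those at 0 in SG-bgcn. CG42579 (FBgn0260869, X:20528044-20528353, plus strand) had no reads in SG-bam against 2355, 1658 and 1749 in SC, at least 631-fold lower, with a gene level of 0.08 in SG-bam against 1064 in SC. CG6675 (FBgn0032973, 2L:22110450-22110649, plus strand) had no reads in SG-bgcn against 1445, 1557 and 1928 in SC. In SG-tut it had 1 read and in SG-bam 3, so a listed 0 and a level just above 0 differed there by very few reads. The gene level of CG6675 was 0.28 in SG-tut, 0.65 in SG-bam and 0.21 in SG-bgcn against 288 in SC. Over all members the bound on the extension was at least 7.46-fold lower for every gene in SG-tut (median 48.9), 7.63-fold in SG-bam (median 27.8) and 8.07-fold in SG-bgcn (median 59.3). The gene level differed by more than the bound of the extension for 69 of 78, 46 of 53 and 53 of 61 genes, so for these the data do not separate loss of the extension from loss of the gene.

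Only 7 genes were at 0 in all 3 mutants. Of these, 5 had a gene level at least 100 times lower than SC in every mutant. CG15177 (FBgn0037461) had gene levels of 0.32 in SG-tut, 3.72 in SG-bam and 0.01 in SG-bgcn against 907 in SC. CG5440 (FBgn0031331) had 0.02, 0.51 and 0.06 in the same order against 557 in SC, CG4073 (FBgn0037827) had 0.08, 1.49 and 0.04 against 527, CG42570 (FBgn0260776) had 0.12, 0.76 and 0.02 against 199, and CG14691 (FBgn0037829) had 0.06, 0.42 and 0.02 against 65.6. CG43850 (FBgn0264432) differed less between groups, with gene levels of 1.04 in SG-tut, 0.66 in SG-bam and 0.50 in SG-bgcn against 13.1 in SC. Its extension (2L:13420646-13420905, plus strand) had 144, 243 and 393 SC reads and was at least 88.2-fold, 87.4-fold and 91.9-fold lower in the same order of mutants. CG1648 (FBgn0033446) was the exception, with gene levels above SC in every mutant. The other members were at 0 in 1 table (91 genes) or in 2 (40 genes). A gene not listed for a mutant has no value there, and 76 of the 138 were listed in a single mutant table.

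**Figure D2:**
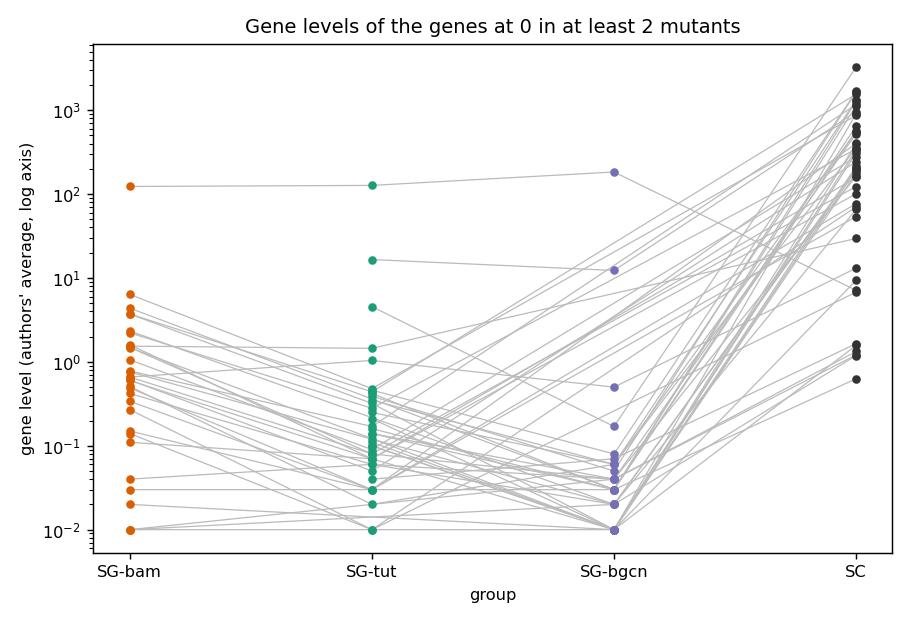
Gene level (authors' average, log axis) of the 47 genes whose extension was listed at 0 in at least 2 mutants, by group, with lines joining the listed values of a gene and no point where a gene is not listed. SC lies above the mutants for nearly all genes, and CG1648, the highest line across the mutants, runs the other way.

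To set apart genes whose missing extension could be seen at this depth, the SC ratio of extension to gene level was multiplied by the mutant gene level and expressed in mutant reads. The result was at least 3 reads for 7 of the 78 genes at 0 in SG-tut, 7 of the 53 for SG-bam and 8 of the 61 for SG-bgcn, 16 genes in all. Of the 16, 10 had a gene level of at least 1 in such a mutant, and the other 6 (CG15120, CG45691, CG9826, dar1, Jon74E and TyrR) were below 1 there. Gene levels are given to 0.01, so the read numbers are coarse for CG9826 (0.03 in SG-bam) and dar1 (0.06 in SG-bam). They are coarse too for TyrR (0.06 in SG-tut and 0.04 in SG-bgcn). For CG15120 and dar1 the deposited extension share in SC was 100%, so their ratios are doubtful. Over all members with an SC gene level above 0 the medians were 0.0942, 0.578 and 0.0320 reads, and below 3 reads a missing extension was not detectable apart from the lower gene level. No such value exists for Ccp84Aa and Ccp84Ab, whose SC gene level was 0. CG1648 had gene levels of 127 in SG-tut, 123 in SG-bam and 184 in SG-bgcn against 7.13 in SC. At the SC ratio this gives 657, 632 and 989 reads in the same order, and none was found. The SC extension of CG1648 (2R:9810809-9811018, minus strand, 45 of its bases within the annotated 3′ untranslated region) had 27, 40 and 43 reads.

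Amy-p (FBgn0000079), an alpha-amylase gene with the near-identical copy Amy-d, gave the highest number. Its gene level was 53.9 in SG-tut, 77.1 in SG-bam and 55.3 in SG-bgcn, against 2.66 in SC. Its extension had no reads in SG-bgcn (10678 at the SC ratio), 2 and 6 in the SG-tut libraries and 4 in each SG-bam library, against 530, 402 and 545 in SC. Thus the extension was near absent in all 3 mutants, where the gene was high, and had reads in SC, where the gene was low. Reads of near-identical copies can be split either way in counting, and whether this was so here was not tested.

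NimA (FBgn0261514, of the Nimrod family of phagocytosis receptors) had a gene level of 15.8 in SG-bam against 2.02 in SC, and no extension reads in SG-bam (422 at the SC ratio) against 71, 50 and 44 in SC. All 200 bases of that span (2L:13962940-13963139, plus strand) are annotated 3′ untranslated region. Dhpr (FBgn0035964), which encodes dihydropteridine reductase of pteridine cofactor recycling, had a gene level of 36.2 in SG-tut against 8.21 in SC. Its span lay 1276 bases past the gene end and had no reads in SG-tut (133 at the SC ratio) against 21, 48 and 22 in SC. U3-55K (FBgn0053505), a protein of the small nucleolar particle that processes ribosomal RNA, had a gene level of 46.0 in SG-bgcn against 12.9 in SC. Its span, directly after the gene end, had no reads in SG-bgcn (111 at the SC ratio) and 22, 33 and 34 in SC. In these 3 genes the gene was higher in the mutant, where the extension had no reads, and the SC read numbers are small for Dhpr and U3-55K.

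Other genes of this kind were lower in the mutant but still expressed. CG43850, whose levels are given above, had at least 10 reads at the SC ratio in each of the 3 mutants, and none was found. CG14079 (FBgn0036849) had a gene level of 3.63 in SG-tut against 10.7 in SC. Its span, 1300 bases past the gene end, had no reads in SG-tut (54.2 at the SC ratio), 1 read in each SG-bam library and 1 in SG-bgcn, against 67, 168 and 235 in SC. CG7675 (FBgn0038610) had a gene level of 4.44 in SG-bgcn against 16.7 in SC, with no reads in SG-bgcn (24.1 at the SC ratio) against 56, 81 and 120 in SC. For both genes the other mutants listed the extension at 1 or 2 reads in all, so the 0 was not far from their values. The gene skap (FBgn0037643, now ScsbetaA, a subunit of succinyl-CoA synthetase of the citric acid cycle) had a gene level of 195 in SG-tut against 355 in SC. Its span of 220 bases lay 2040 bases past the gene end, with no reads in SG-tut (12.8 at the SC ratio) against 21, 22 and 27 in SC. In SG-bam, where the skap gene level was 205, a span of 230 bases had 1 read, so this 0 too was close to another mutant. Drsl2 (FBgn0052279), a drosomycin-like antimicrobial peptide gene, had gene levels of 1.45 in SG-tut and 1.54 in SG-bam against 29.6 in SC, which gives 4.68 and 4.93 reads at the SC ratio. CG14995 (FBgn0035497) shows the opposite limit: gene levels of 16.6 in SG-tut and 12.3 in SG-bgcn against 961 in SC give only 0.401 and 0.310 reads.

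**Figure D3:**
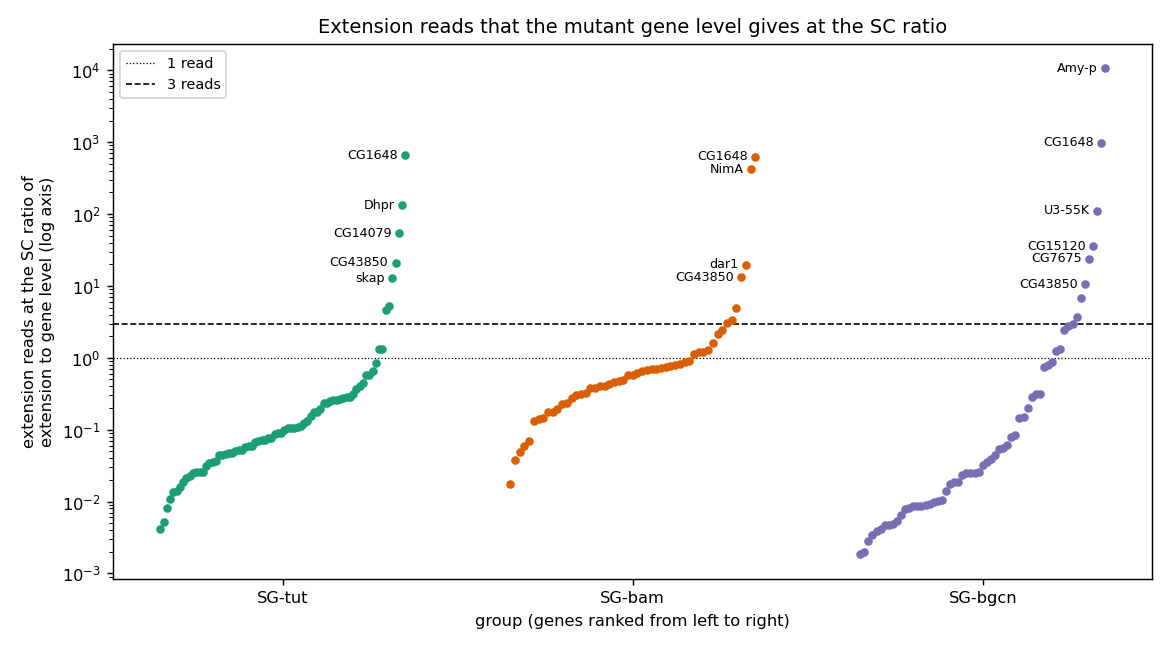
Reads that each extension would have in the mutant if it stood to the mutant gene level as it does in SC (y axis, log), with genes ranked within SG-tut, SG-bam and SG-bgcn. Genes at 10 reads or more are named, the dotted and dashed lines mark 1 and 3 reads, and most genes lie below the dotted line. The 2 genes with an SC gene level of 0 are not drawn.

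For 19 of the 138 genes the SC gene level itself was below 5, and it was listed at 0 for Ccp84Aa and Ccp84Ab, a pair from a cuticle protein cluster. Their extensions still had 162, 167 and 168 SC reads (Ccp84Aa) and 51, 58 and 97 (Ccp84Ab), with gene levels of 0.01 and 0.03 in SG-tut. Some of these weakly expressed genes are known from neurons: the odorant receptor genes Or33a and Or74a, the tyramine receptor gene TyrR, and pros, a homeodomain factor of neural cells. Others of the 19 are Amy-p, Jon74E, NimA, Skeletor and genes with a CG number, so no common theme is read from them. Or33a had gene levels of 0.02 in SG-bam and 0.01 in SG-bgcn against 1.57 in SC, and pros had 0.01 in SG-bam and 0.02 in SG-bgcn against 1.19 in SC. Their SC extensions rested on 35, 23 and 32 reads for Or33a and 21, 65 and 60 for pros. The deposited share of the extension in SC was 100% for CG15120, CG31028, dar1 (a zinc finger factor gene), Ccp84Aa and Ccp84Ab. The gene level of CG15120 was 0.32 in SG-bgcn against 0.36 in SC, and its span lay 1040 bases past the gene end with 29, 30 and 55 SC reads. That span touches an exon of CG16926 on the opposite strand. The CG15120 extension had 2 reads in SG-tut, over 320 bases, and 2 in SG-bam. D (Dichaete, FBgn0000411, a Sox-family factor) was expressed at 0.04 in SG-bam against 17.7 in SC. Its span had 456, 659 and 992 SC reads, and 316 of its 320 bases are annotated 3′ untranslated region.

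Gene levels of the members were not equal among the mutants. Among the 22 genes at 0 in both SG-bam and SG-tut, 20 had a higher gene level in SG-bam, with a median ratio of 8.52. Among the 24 genes at 0 in both SG-tut and SG-bgcn, 21 were higher in SG-tut, with a median ratio of 5.54. Of the 15 at 0 in both SG-bam and SG-bgcn, 10 were higher in SG-bam, with a median ratio of 8.50. Other genes listed in the same pairs of tables had median ratios of 1.03, 0.995 and 1.01 in the order given, with 195 of 342, 167 of 350 and 173 of 331 genes higher in the first mutant. The members' difference is given without a test, and the levels concerned are mostly below 1. Gene levels are given to 0.01, and many SG-bgcn levels lay at or near that value, so the ratios to SG-bgcn are coarse. Acp95EF, an accessory gland gene, had a gene level of 3980 in SG-tut, 2120 in SG-bgcn and 673 in SG-bam, against 349 in SC. It was the 1 listed gene under the 8 accessory gland marker names, which include both Acp70A and SP, and it was not at 0. Its part in the members' values was not tested.

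Of 12 spermatocyte markers, 2 were listed for each mutant. Their summed gene level was 1.40 in SG-tut against 7834 in SC, where they are the members dj and ProtB. For the other pair, aly and fzo, it was 24.8 in SG-bam and 19.1 in SG-bgcn, each against 318 in SC. The pair differed: aly was at 23.4 in SG-bam and 18.2 in SG-bgcn against 72.7 in SC. By contrast, fzo was at 1.49 and 0.93 in the same order against 245 in SC. The muscle gene Tm1 was at 167 in SG-tut, 158 in SG-bam and 213 in SG-bgcn against 18.2 in SC, and it was the 1 of 7 muscle and sheath markers listed for SG-tut and SG-bam. For SG-bgcn 2 of the 7 were listed, with a sum of 280 against 22.7 in SC. Of 8 spermatogonial markers, 1 was listed for SG-tut, with 19.3 against 0.57 in SC, and 2 for SG-bam and SG-bgcn, with sums of 66.5 and 50.8 against 26.2 in SC. Of 8 hub and cyst cell markers none was listed for SG-tut, 1 for SG-bam (9.99 against 2.70 in SC) and 2 for SG-bgcn, where zfh1 was at 8.98 against 2.70 in SC and dally at 0.15 against 139 in SC, a sum of 9.13 against 141. No listed marker had a gene level of 0, though the extensions of dj and ProtB were at 0 in SG-tut. The part of cell makeup in the members' values was not tested. The genes bam and bgcn were in no table, and tut was in the SG table alone (44.2 in SG against 87.3 in SC), so the mutated genes could not be checked in the mutants.

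The SG table, from dissected wild-type mitotic cells made with the same kit as SC, listed 11 of the members. Their gene level in SG was above every mutant level listed for 11 of 11 and below SC for 11 of 11. Among the other genes listed for SG and a mutant, 93 of 323 were above every mutant level and 137 of 323 below SC, with 32 of 323 both. The choice of the members favours genes low in the mutants and high in SC, so nothing is read from this contrast. CG4073 had 136 in SG against 527 in SC, while the 3 mutants had at most 1.49. Glut3, a glucose transporter gene, had a gene level of 23.8 in SG, 0.07 in SG-tut and 0.60 in SG-bam, against 158 in SC. The same held at lower levels for CG14069 (11.4 in SG against 150 in SC) and CG14106 (9.87 in SG against 123 in SC). The extension was above 0 in SG for 9 of the 11, lower than in SC for all 11, and highest for CG4073 at 0.0900 against 0.640 in SC. CG13898 and CG14540 were at 0 in SG too, with gene levels of 32.5 and 9.55. The SG table holds selected genes, so these 11 do not stand for the rest, and the part of dissection, kit or genotype was not tested.

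The members' extensions mostly began where the gene ended. The start lay directly after the gene end for 55 of 78 extensions in SG-tut (70.5%), 38 of 53 in SG-bam (71.7%) and for 42 of 61 in SG-bgcn (68.9%). The other listed extensions were parted by the deposited extension share, lower or higher in the mutant than in SC, and not by extension level. Among the other extensions with a lower share the numbers were 14 of 82, 23 of 92 and 15 of 90. Among those with a higher share they were 36 of 467, 42 of 493 and 46 of 467. Lower and higher are used in this sense below. A gap separated extension and gene for 4, 3 and 2 members, against 47 of 82, 51 of 92 and 57 of 90 of the other lower extensions. Annotated 3′ untranslated sequence of the gene itself was touched by 19, 11 and 15 of the members' extensions, against 17 of 82, 16 of 92 and 15 of 90 of the other lower extensions and 255 of 467, 275 of 493 and 268 of 467 of those higher in the mutant. Exons of another gene on the same strand were touched by 2, 1 and 1 of the members' extensions. For the other lower extensions the numbers were 17 of 82, 13 of 92 and 18 of 90. For those higher in the mutant they were 66 of 467, 71 of 493 and 64 of 467. Exons on the opposite strand were touched by 1, 0 and 2 of the members' extensions. The other lower extensions gave 6 of 82, 8 of 92 and 7 of 90. Those higher in the mutant gave 17 of 467, 15 of 493 and 13 of 467. The members' extensions had median lengths of 420, 350 and 400 bases, against 371.5, 374 and 355 for the other lower extensions. For extensions higher in the mutant they were 650, 730 and 670.

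**Figure D4:**
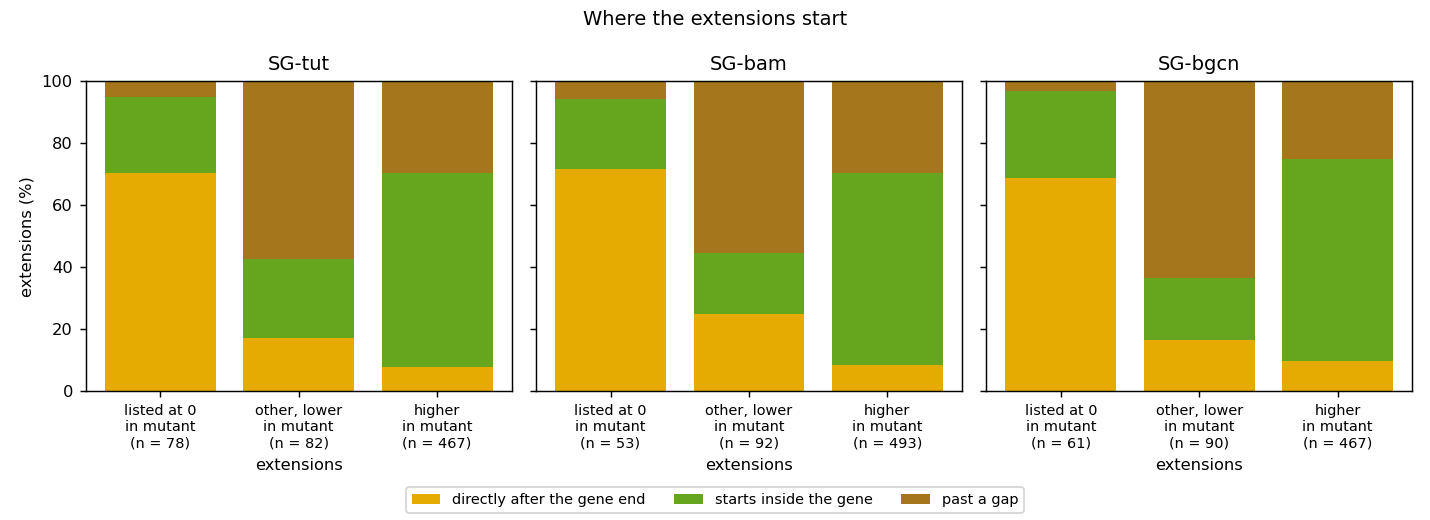
Share of extensions (y axis, %) that begin directly after the annotated gene end, inside the gene or past a gap, for extensions listed at 0 in the mutant, other extensions lower in the mutant and extensions higher in the mutant. Lower and higher refer to the deposited extension share, not to the extension level. The bars of the extensions at 0 are mostly of the first kind, at 70.5%, 71.7% and 68.9%.

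By chromosome arm, 42 members lay on 2L, 26 on 2R, 26 on 3L and 33 on 3R, with 11 on X and none on 4 or Y. X-linked members were 4 of 78 for SG-tut, 5 of 53 for SG-bam and 4 of 61 for SG-bgcn. Among the extensions with a higher share in the mutant 85 of 467, 97 of 493 and 82 of 467 were X-linked. Among the others with a lower share there were 6 of 82, 9 of 92 and 5 of 90. Some members are neighbours. The extension of sowi (3R:6625570-6626929) and that of CG15177 (3R:6627901-6628203) follow each other on the minus strand, as do those of Ssl (2R:24498993-24499242) and Prosalpha4T2 (2R:24500268-24500864).

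Small shifts of a span moved some values. Of 62 members listed for at least 2 mutants, 11 had different spans between tables. The SC extension of CG15177 held 2225 reads where its 303 bases began directly after the gene end, and 168 reads in the 293 bases that began 10 bases further on. Most reads of the longer span were thus lost with its first 10 bases. CG10164 had 4804 SC reads over 350 bases and 1914 over 240 bases, whereas CG13039 had 970 over 250 bases and 858 over 240, and CG14362 had 4476 over 1110 and 4136 over 1100. For CG13039, CG14362, CG10164 and CG5790 the longer span was at 0 in SG-tut and the shorter one had 1 or 2 reads in SG-bam. CG17237 (FBgn0031410) was at 0 in SG-bam over 350 bases directly after the gene end. A second span that began 350 bases further out was listed for SG-bgcn, with 18 and 22 reads and an extension level of 0.569 against 0.177 in SC, so this gene's outer span was higher in that mutant.

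Of the 138 genes, 17 were listed above 0 in another mutant. The 24 mutant values concerned were between 1 and 40 reads, with 10 of 1 read and 19 of at most 3. A library decided the SC value of CG32984, with 5, 2 and 70 reads, a 38.0-fold spread between libraries, and it was the 1 span above 4-fold. Its library levels were 0.0769, 0.0318 and 1.21, and without the library with 70 reads its SC average was 0.0544 in place of 0.439. In the authors' deposited tables CG32984 had an FDR of 0.0540 in SG-bam and 0.0528 in SG-bgcn, and Tsp66A, with 30, 9 and 28 SC reads, had 0.0517 in SG-tut. Just inside the choice by SC level stood RYa-R (SC extension level 0.168), CG43069 (0.171) and CG4218 (0.216). Just outside it stood genes with 1 mutant read in SG-tut: CG14961 (mutant extension level 0.00770 against 0.224 in SC), CG31793 (0.00812 against 0.314) and CG14989 (0.00851 against 0.316). In SG-bam the nearest were CG45491 (0.00264 against 10.2), CG14362 (0.00636 against 4.07) and Tsp42A (0.00708 against 9.35), with 2, 2 and 1 reads. In SG-bgcn the nearest were CG5770 (0.00853 against 2.67), rngo (0.0101 against 0.356) and CG33970 (0.0122 against 2.96), with 1, 1 and 3 reads.

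Few members belonged to the 8 gene lists, but few genes of these lists were listed for any mutant. Of all genes listed for any mutant, 138 of 1040 were members. Of the spermatid differentiation genes, 9 were listed. Besides the 5 spermatid differentiation genes, the lists held sowi among 34 matched axoneme and motility genes (2 listed for any mutant), Ssl among 39 kinase and phosphatase genes (6 listed), Amy-p and CG31644 among 41 mitochondrial and metabolic genes (7 listed) and Prosalpha4T2 among 19 proteasome and ubiquitin genes (2 listed). No member was found among 18 stem cell and spermatogonial regulators (7 listed), 15 genes of the meiotic cell cycle (1 listed) and 14 of the spermatocyte transcription programme (1 listed). Lists with 1 listed gene say little either way.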

How the data were processed

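The 12 libraries were measured by RNA-seq. Per the submitters' processing notes, the build was dm6 and the tools were TopHat2 2.1.0, Cuffdiff and Cufflinks (both 2.2.1), DESeq2, CASAVA, Trimmomatic 0.33 and FastQC 0.11.3, named without a role. How extensions were defined is not given in the sources used here. Per the file headers, the 4 deposited tables give the authors' signal (average level of extension and of gene per group, unit not named), the extension share as a fraction, log2 folds, and the authors' p-value and FDR. They hold selected genes, and no values per library.

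The levels were read as deposited. Ratios of gene levels, whole reads per library and bounds with a floor of 3 reads over a group were computed with python 3.11.15, pandas 2.3.3 and numpy 2.4.6, and the split was tested on simulated data. SG steps were not resolved and are not used. Depth per library is otherwise unknown. No test of single genes was run, because the members were chosen by the contrast. Spans were set against Ensembl release 115, which matched 138 of 138 genes, with the same locus for 136. Coordinates are dm6 and count from 1. Polyadenylation signal words were planned, but no genome sequence was used here.

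Members and the 8 gene lists were chosen with earlier results of these data known. Named genes are the members at 0 in all 3 mutants, per mutant up to 8 with a gene level of at least 1 and the highest SC extension and the 5 with the highest SC gene level, list members, genes next to the thresholds, the highest extensions above 0 in another mutant, and the highest in SG. CG42579, CG6675, CG10164, CG13039, CG5790, CG14540, the weakly expressed genes, eIF4E-4, glob2, snky, D, CG31028, CG32984 and Tsp66A were added after their values were seen.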

Additional observations from a re-analysis of the deposited data

How the results depend on the processing

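The counts moved mostly with the cut on the mutant gene level. Genes at a mutant gene level of at least 1 numbered 9 in SG-tut, 20 in SG-bam and 5 in SG-bgcn; above 0 they numbered 78, 53 and 61, and at 5 or more 4 in SG-tut and 8 in SG-bam. The number of genes with at least 3 reads at the SC ratio (7 in SG-bam, 8 in SG-bgcn) was 14 in SG-bam and 13 in SG-bgcn at 1 read, and 4 in SG-bam at 10 reads, cuts chosen after seeing the data. Members above 0 in SG numbered 9, and 0 when an extension level of at least 0.1 was required. Extensions touching the annotated 3′ untranslated region were 33, and 18 when 50% of the span had to lie in it. The other 23 of 33 alternatives stayed within 1.5 times the count above, but some of them could not move. A cut of 0.1 on the SC extension level lay below every member, the lowest of which was at 0.168. Leaving out an SC library could not change the member count, because every span had reads in all 3. Allowing 1 mutant read, also chosen after seeing the data, gave 88, 65 and 67 genes. No paired analysis was possible because the tables hold group averages without replicate columns, and for the same reason gene levels could not be recomputed without a replicate. Leaving out each SC library in turn, also chosen after seeing the data, left reads in the extensions of 138 genes each time, and moved the SC average by over 1.5 times in 1 of 140 spans, that of CG32984 (0.0544 in place of 0.439). The alternatives on polyadenylation signal words were not run. Per library, a mutant read was worth 1.92 to 2.02 times an SC read. In the group averages, 1 read moved the product of level and length by 3.11 to 3.27 in the mutants and 1.08 in SC. This limits what a 0 shows.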
